A study of Homo sapiens with 4 samples.

Results

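The transcription factors that set lung and endoderm identity were examined in A549 cells, a human lung adenocarcinoma line, with and without overexpression of the deubiquitinase USP12. The members were fixed by name as NKX2-1, FOXA1, FOXA2, FOXA3, GATA6, HNF4A, SPDEF, ELF3 and CEBPA, 9 of the 50868 genes counted in each library. Messenger RNA had been sequenced in 4 bulk libraries, 2 from control A549 cells, which the study describes as carrying the vector alone, and 2 from A549 cells expressing USP12 from a vector. The libraries of both groups came from the same parental line, and no further allele or agent separates them in the labels. Whether the replicates were separate cultures is not stated, so p-values measure the spread between these libraries only.

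These factors act in layers. The FOXA proteins are pioneer factors that open chromatin of endoderm-derived tissues, and GATA6 and HNF4A work beside them, HNF4A being a nuclear receptor of liver and gut epithelium. NKX2-1 defines lung and thyroid epithelium and drives surfactant genes, SPDEF drives mucous (goblet) cell differentiation together with FOXA3, ELF3 is an ETS factor of differentiated epithelium, and CEBPA promotes terminal differentiation in liver, lung and other tissues. Lung adenocarcinomas that lack NKX2-1 are known to take on gastric or hepatic gene programmes under HNF4A and FOXA factors.

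The libraries held between 14280081 and 16305356 counts, and 15222 genes passed the filter on low counts, of which 8 were lineage factors. NKX2-1 did not pass it. The filter could be passed through a single group, which favours a call for a gene near 0 in the other. Levels are given as CPM, counts per mega-count of library size. That size is the library's total over the genes that passed the filter, multiplied by its TMM factor. The floor of 3 counts lay between 0.166 and 0.227 CPM, which covers counting error only. USP12 itself was at 15.2 and 34.4 CPM in controls and at 1745 and 2235 CPM with USP12. The libraries stood apart unevenly, since the SD of log2 ratios across genes was 1.32 for the control pair and 0.62 for the USP12 pair. For pairs of a control and a USP12 library it was between 1.01 and 1.31. No such pair therefore stood further apart than the controls did from each other. The count column of control replicate 1 is headed with a different leading number than those of the remaining libraries, so each member is also given against control replicate 2 alone.

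SPDEF and FOXA3, the pair of factors tied to mucous cell differentiation, were the lineage factors that met the study's criterion for lower expression in USP12 cells, an unadjusted p of at most 0.05 together with a log2 difference of at most -1. They were 2 of the 8 tested factors, where 4.41% of all tested genes met it. The members were chosen with earlier results of these data known, so such contrasts with all genes are a description. None met the mirrored criterion (0 of 8, against 2.92% of all tested genes). FOXA2 had the only higher point estimate, and the other 5 tested factors had lower ones without meeting the criterion. After Benjamini-Hochberg adjustment over all tested genes in edgeR's quasi-likelihood test, 0 of the 8 factors and 0% of all genes had an adjusted p under 0.05, while 2 factors and 1155 genes had an unadjusted p under 0.05. DESeq2's Wald test and edgeR's exact test each placed 2 factors, SPDEF and FOXA3, under an adjusted p of 0.05, where they placed 2.67% and 2.82% of all tested genes there. The number of factors lower by the criterion was 3, with CEBPA added, by the Wald test (5.43% of all genes) and without a filter on low counts (4.73%). Without control replicate 2 it was 4, with ELF3 and CEBPA added, but 13.3% of all genes then met the criterion.

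The number of genes called depended strongly on which library was left out of the edgeR fit. An adjusted p under 0.05 was reached by 32.2% of all genes without control replicate 2, by 10.5% without control replicate 1, by 0.248% without USP12 replicate 1 and by 0.273% without USP12 replicate 2. The adjusted p-values given below for such fits are to be read against these shares.

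**Figure D1:**
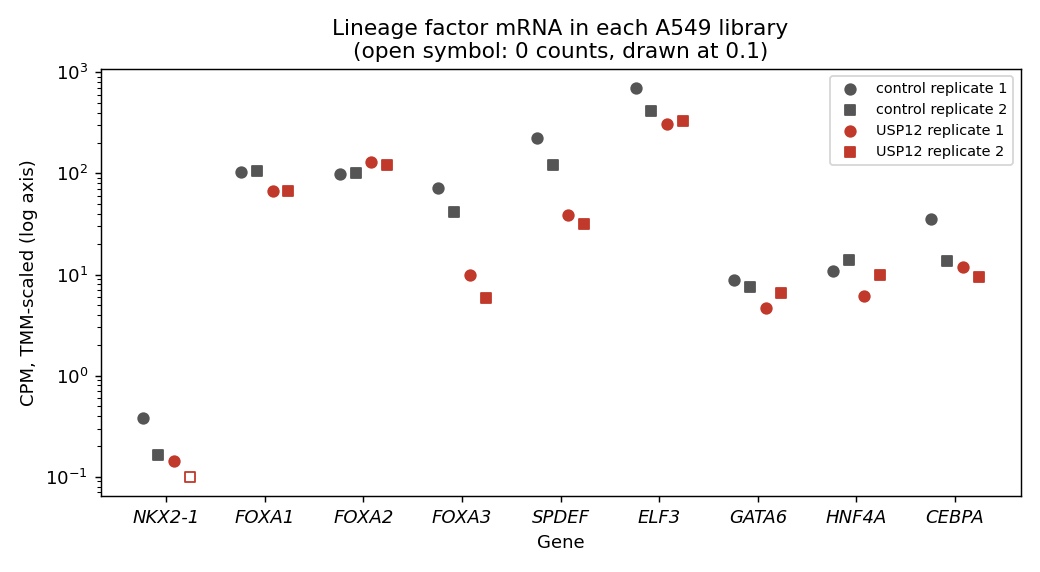
Level of each lineage factor in each of the 4 A549 libraries, as TMM-scaled CPM on a log axis, with control libraries in grey, USP12 libraries in red, and circles and squares for replicates 1 and 2. FOXA3 and SPDEF show the widest gaps between the groups, FOXA2 lies slightly higher with USP12, and NKX2-1 lies near the floor of 3 counts.

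FOXA3 (ENSG00000170608, chromosome 19 of GRCh38, 45863989 to 45873797, plus strand) is the FOXA paralog best known from liver and from goblet cells. It was at 71.2 and 42 CPM in controls and at 9.93 and 5.82 CPM with USP12. Every USP12 library was therefore below every control library, and replicates within a group differed by 0.76 on the log2 scale in both groups. The log2 fold change, given with its standard error (SE), was -2.84 (SE 0.53, adjusted p = 0.21 in edgeR), ranking 115 by p, a 7.18-fold lower level. It stood at the 1.52 percentile of log2 fold changes of all tested genes, counted from the lowest. The log2 difference was -3.20 against control replicate 1 and -2.44 against control replicate 2. In edgeR fits that left out a control library, the adjusted p was 0.00806 when control replicate 1 was absent and 0.00338 when control replicate 2 was. It was 0.862 when USP12 replicate 1 was left out and 1 when USP12 replicate 2 was, with log2 fold changes of -3.26 and -2.50.

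SPDEF (ENSG00000124664, chromosome 6, 34537802 to 34556333, minus strand) encodes an ETS factor that is a main regulator of goblet cell fate. Its level was 224 and 122 CPM in controls and 38.5 and 31.4 CPM with USP12. The groups again did not overlap, with the control replicates 0.87 apart on the log2 scale and the USP12 replicates 0.29 apart. The log2 fold change was -2.31 (SE 0.45, adjusted p = 0.224 in edgeR), ranking 134 by p, a 4.95-fold lower level at the 2.34 percentile of all tested genes. Against control replicate 1 the log2 difference was -2.68, and against control replicate 2 it was -1.81. Without control replicate 1 the edgeR fit gave -1.80 with an adjusted p of 0.00463, and without control replicate 2 it gave -2.65 with an adjusted p of 0.00164. With either USP12 library left out the adjusted p was 1 in edgeR, at log2 fold changes of -2.44 and -2.16. The log2 ratio of FOXA3 to SPDEF, from log2 CPM with a prior count of 2, was -1.65 and -1.54 in controls. With USP12 it was -1.94 and -2.41, so the gap between these genes was slightly wider in USP12 cells.

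The 250 bases before the RefSeq start of FOXA3 and of SPDEF (GRCh38.p14) are shown because these are the genes whose level differed most, with ELF3 beside them as an ETS relative whose difference was smaller. Each runs 5′ to 3′ on the strand of its gene, and capitals mark matches to the motifs searched.
FOXA3, chr19:45864076-45864325, plus strand: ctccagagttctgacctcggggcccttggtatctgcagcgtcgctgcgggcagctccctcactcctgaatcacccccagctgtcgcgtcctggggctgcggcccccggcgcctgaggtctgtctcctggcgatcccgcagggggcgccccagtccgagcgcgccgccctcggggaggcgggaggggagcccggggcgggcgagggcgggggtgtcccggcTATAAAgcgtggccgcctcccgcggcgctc
SPDEF, chr6:34556330-34556579, minus strand: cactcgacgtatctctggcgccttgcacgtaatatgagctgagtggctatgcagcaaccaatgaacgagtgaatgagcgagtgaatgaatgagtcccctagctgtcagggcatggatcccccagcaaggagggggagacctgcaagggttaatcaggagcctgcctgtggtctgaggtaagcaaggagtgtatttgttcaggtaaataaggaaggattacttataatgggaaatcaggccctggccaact
ELF3, chr1:202010337-202010586, plus strand: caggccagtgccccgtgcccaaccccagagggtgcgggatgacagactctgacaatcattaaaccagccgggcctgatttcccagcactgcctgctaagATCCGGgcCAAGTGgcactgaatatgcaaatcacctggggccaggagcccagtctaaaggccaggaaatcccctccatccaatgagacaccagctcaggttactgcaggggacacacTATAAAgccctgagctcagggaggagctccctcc

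The motifs were searched on both strands. They were TGTTTNC for FOXA factors, CCGGAA or else CCGGAT for ETS factors, AGATAA for GATA factors, TTGCNNAA for C/EBP factors, CAAGTG for NK2 factors and the TATA box letters TATAAA. No pair of matches overlapped in these 3 windows. FOXA3 held a TATA box match beginning 30 bases before the start and ELF3 held one beginning 34 bases before it, while 10.7% of 35114 RefSeq promoters of this length held that motif. ELF3 also held a CCGGAT match and a CAAGTG match, which 5.85% and 9.5% of promoters held. No searched motif was matched in the SPDEF window, which says only that these letters are absent from it. CEBPA, whose window is not shown, held a TATA box match 30 bases before its start. FOXA1 held a FOXA match 235 bases before its start, and 15.5% of all promoters held that motif. NKX2-1, which has more than 1 RefSeq window, held FOXA matches 241 and 130 bases before its starts. Matches to other motifs lay in the windows of FOXA1, GATA6, HNF4A and NKX2-1. RefSeq windows were found for 8 of the 9 factors, not for FOXA2.

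The remaining FOXA genes differed from FOXA3. FOXA1 (ENSG00000129514, chromosome 14, 37589552 to 37596059), a pioneer factor of lung, breast and prostate epithelium, was at 104 and 105 CPM in controls and at 67.7 CPM in each USP12 library. The replicates of each group were nearly equal and the groups did not overlap, but the log2 fold change of -0.63 had a standard error of 0.34 in a fit that shares variance between genes (adjusted p = 0.82 in edgeR). FOXA2 (ENSG00000125798, chromosome 20, 22580998 to 22585455), which is required for early endoderm and for airway epithelium, was at 97.8 and 101 CPM in controls and at 129 and 120 CPM with USP12. Its log2 fold change was 0.32 (SE 0.34, edgeR adjusted p = 0.94). Both USP12 libraries were above both control libraries, but the difference was smaller than its standard error.

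On a scale that allows a rough comparison of genes, CPM per kb of annotated exon, the summed FOXA level was divided differently in the 2 groups. The length covers all annotated exons of a gene, not only those of the transcripts expressed, so genes with many exon variants may be set too low. FOXA3 held 36% and 24.5% of it in controls and 6.94% and 4.41% with USP12. The share of FOXA2 was 38.6% and 46.2% in controls against 70.3% and 70.9% with USP12, whereas that of FOXA1 lay between 22.8% and 29.3% in all libraries. The log2 ratio of FOXA3 to FOXA2, in which library scaling nearly cancels, was -0.46 and -1.27 in controls and -3.68 and -4.33 with USP12. It was taken from log2 CPM with a prior count of 2, which draws ratios of low counts slightly toward 0. With 2 libraries a group, an exact two-sided permutation test of such a ratio cannot give a p below 0.333, so these shares are a description.

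ELF3 (ENSG00000163435, chromosome 1, 202007945 to 202017183), the most abundant lineage factor by counts, was at 699 and 416 CPM in controls and at 309 and 331 CPM with USP12. The groups did not overlap, but the control replicates differed by 0.75 on the log2 scale. The log2 fold change was -0.80 (SE 0.38, adjusted p = 0.75 in edgeR), and the log2 difference was -0.38 against control replicate 2 alone. Without control replicate 2 the fit gave -1.10 with an adjusted p of 0.00954. ELF3-AS1 lies across ELF3 on the opposite strand with 157 and 105 counts in controls and 50 and 65 with USP12, and although the library kit was stranded, the strand setting of the counting is not given in the sources used here.

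EHF, another epithelial ETS factor, was at 32.7 and 51.6 CPM in controls and at 3.46 and 5.33 CPM with USP12. Its log2 fold change was -3.26 (SE 0.53, adjusted p = 0.182 in edgeR), past the criterion. ELF5, a further gene of this group, had 0 counts in every library. In CPM per kb, SPDEF held 53.4% and 49.3% of the summed level of these genes in controls and 31.6% and 26% with USP12, while ELF3 went from 44.4% and 44.6% to 67.6% and 72.8%.

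CEBPA (ENSG00000245848, chromosome 19, 33299934 to 33302534), which acts in hepatocytes and alveolar cells, was at 35.5 and 13.7 CPM in controls and at 11.8 and 9.49 CPM with USP12. The control libraries differed from each other by 1.36 on the log2 scale, more than the log2 fold change of -1.21 (SE 0.58, adjusted p = 0.762 in edgeR). The log2 difference was -1.73 against control replicate 1 and -0.37 against control replicate 2. In the fit without control replicate 2 it was -1.71 with an adjusted p of 0.00789. The difference therefore rested mainly on control replicate 1.

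GATA6 (ENSG00000141448, chromosome 18, 22169589 to 22202528), a zinc finger factor of early endoderm and distal lung, was expressed at a low level. It had 116 and 135 counts in controls and 65 and 95 counts with USP12, which is 8.78 and 7.48 CPM against 4.68 and 6.58 CPM. The log2 difference from control replicate 2 alone was -0.63 for FOXA1, 0.29 for FOXA2, -0.42 for GATA6 and -0.81 for HNF4A. The log2 fold change of GATA6, -0.53, was about as large as its standard error of 0.51 (edgeR adjusted p = 0.93). HNF4A (ENSG00000101076, chromosome 20, 44355699 to 44432845) had 143 and 251 counts in controls and 86 and 145 counts with USP12, or 10.8 and 13.9 CPM against 6.19 and 10 CPM. Its log2 fold change was -0.61 (SE 0.50, edgeR adjusted p = 0.914), and the replicates differed by 0.36 and 0.69 within the groups. For both genes the USP12 libraries lay just below the control libraries, within the error of the fit.

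NKX2-1 (ENSG00000136352, chromosome 14, 36516392 to 36521149) was at or near the floor in every library, with 5 and 3 counts in controls and 2 and 0 counts with USP12. No difference was detectable at this depth, since 0 counts in USP12 replicate 2 allow up to 0.208 CPM. The genes that mark the NKX2-1 programme in alveolar and airway cells were mostly silent too. Of 20 such genes, 14 did not pass the filter, and the surfactant gene SFTPB had 0 counts in all libraries. Of the 6 tested, 1 met the criterion for lower expression (against 4.41% of all tested genes) and 0 met it for higher (2.92%). The 1 lower gene was LAMP3, with 26 and 101 counts in controls and 6 and 4 with USP12. With a library left out the number lower changed, and the share of all genes lower by the criterion changed too. ABCA3, a lamellar body lipid transporter, was at 115 and 77.9 CPM in controls and at 76.2 and 77.9 CPM with USP12.

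**Figure D2:**
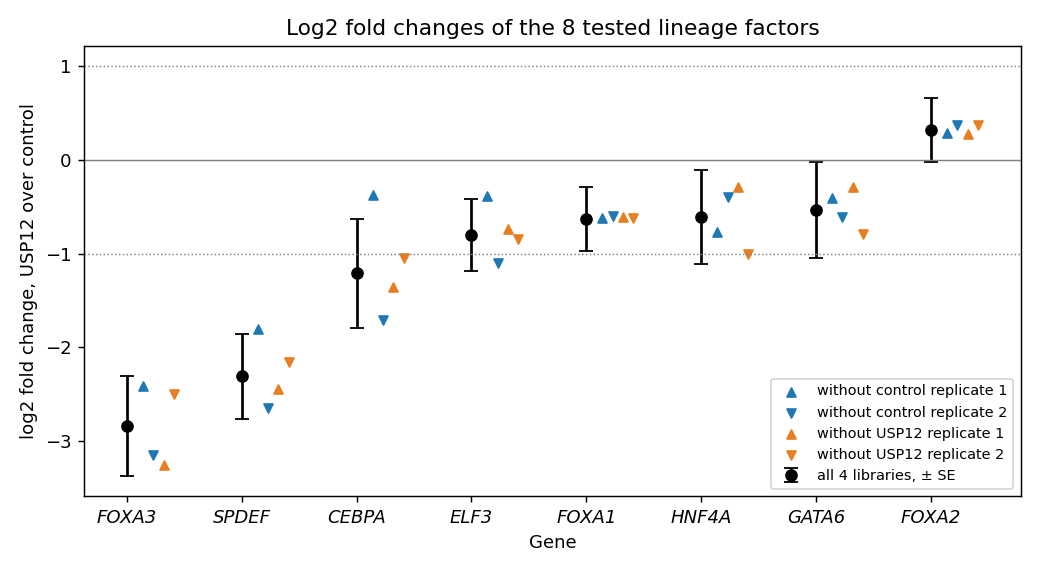
Log2 fold change (USP12 over control) of the 8 tested lineage factors, with black points and bars for the edgeR estimate from all 4 libraries and its standard error, and triangles for fits that left out the named library. FOXA3 and SPDEF were at or below -1.80 in every fit drawn, whereas CEBPA ranged from -1.71 to -0.37; dotted lines mark -1 and 1.

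Considered together, USP12 cells lay under the controls in each library for 7 of the 8 tested factors and over them for 1, FOXA2. Over all tested genes 17% were below and 19.5% above in this way. The median log2 fold change was -0.71 over the 8 factors and -0.06 over all tested genes. As the members were chosen with earlier results known, these contrasts are a description. The median was -0.89 against control replicate 1 and -0.52 against control replicate 2. By mean CPM per kb, the order in control cells was SPDEF at 90.5, ELF3 at 77.5, FOXA2 at 36.6, FOXA3 at 26.6, FOXA1 at 23.7, CEBPA at 9.46, GATA6 at 2.14, HNF4A at 1.22 and NKX2-1 at 0.086. SPDEF and ELF3 overlapped between libraries, as did FOXA3 and FOXA1. In CPM, ELF3 was above SPDEF in every library, so their order here rests on the exon lengths used, 7186 and 1914 bases. In USP12 cells FOXA2 at 45.7 and ELF3 at 44.5 came first and overlapped, followed by SPDEF at 18.3, FOXA1 at 15.3, CEBPA at 4.09, FOXA3 at 3.7, GATA6 at 1.48, HNF4A at 0.798 and NKX2-1 at 0.0227. CEBPA and FOXA3 overlapped between the USP12 libraries.

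Relatives and neighbours of these factors gave a mixed picture. Of 18 genes from the same protein families, 11 were tested, with a median log2 fold change of -0.72. Of these, 2 met the criterion for lower expression (against 4.41% of all tested genes) and 0 for higher (2.92%). The 2 were EHF and GATA5, the latter with 119 and 24 counts in controls and 5 and 13 with USP12. The number lower changed with the library left out, as did the share of all genes lower by the criterion. CEBPB was at 183 and 146 CPM in controls and at 130 and 106 CPM with USP12, without meeting the criterion. Nor did CEBPD (83.8 and 29.1 CPM against 33.8 and 31.1) or NKX2-8 (6.89 and 1.33 CPM against 2.23 and 1.11), whose groups overlapped. LINC00261, a noncoding RNA gene next to FOXA2, had 29 and 110 counts in controls and 155 and 173 with USP12 (log2 fold change 1.47, adjusted p = 0.684 in edgeR), the same side as FOXA2. CEBPA-AS1, beside CEBPA, had 50 and 33 counts against 12 and 27.

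Among 31 other transcription factors of endoderm and epithelial lineages, 24 were tested, with a median log2 fold change of -0.32. Of these, 5 met the criterion for lower expression (against 4.41% of all tested genes) and 2 for higher (2.92%). The lower ones were GRHL3, SOX9, TP63, MECOM and SOX17. SOX9, a factor of distal lung progenitors, was at 94.7 and 96.6 CPM in controls and at 37.7 and 45 CPM with USP12, with groups far apart relative to their replicates. GRHL3, an epithelial barrier factor, was at 157 and 25.9 CPM in controls and at 8.13 and 7.69 CPM with USP12, so its control replicates were far apart. The higher ones were FOXJ1, the factor of ciliated cells, with 0 and 9 counts in controls and 39 and 57 with USP12, and NR5A2, a nuclear receptor of liver and pancreas, at 9.08 and 14 CPM against 27 and 31 CPM. SOX17 and NR5A2 were named to complete these short lists, after their values had been seen. Both numbers changed with the library left out, and so did the share of all genes lower by the criterion. The balance between the directions is therefore not settled by these libraries.

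Genes of the tissues in which SPDEF, FOXA3 and HNF4A are known to act were examined next. Of 20 mucous secretory cell genes, 16 were tested. Of these, 12 met the criterion for lower expression (against 4.41% of all tested genes) and 0 for higher (2.92%). Their median log2 fold change was -3.17, or -2.41 with TFF3 and AGR3, which had 0 counts in both USP12 libraries, set at their bound of at least 4.81-fold and 6.49-fold lower. FCGBP, which encodes a mucus-associated protein, was at 360 and 188 CPM in controls and at 20.4 and 19.2 CPM with USP12, and ST6GALNAC1, which adds sialic acid to mucins, was at 41.5 and 47 CPM against 1.8 and 1.18 CPM. The mucin gene MUC5AC (3755 and 6984 CPM against 270 and 319 CPM), MUC5B (2265 and 5292 CPM against 222 and 287 CPM) and CREB3L1 (291 and 117 CPM against 1.51 and 2.15 CPM) were in the same group. TFF3 and AGR3 passed the filter on low counts through the control libraries alone. With at least 10 counts required in every sample, 9 mucous secretory genes met the criterion for lower expression, where 3.91% of all genes did. The number also changed with the library left out. The list was drawn up with earlier results of these libraries known, so its direction is not independent evidence.

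Of 19 gastric and intestinal epithelial genes, 13 were tested. Of these, 10 met the criterion for lower expression (against 4.41% of all tested genes) and 1, the peptidase gene ANPEP, for higher (2.92%). The median log2 fold change was -4.13. That is the value of TSPAN8, with 1 and 4 counts in the USP12 libraries, near the floor of 3 counts. VSIG1 (1 and 6 counts), MYO1A (0 and 1) and PIGR (0 and 5) were also near it there. VIL1 (5 and 5), LGALS4 (6 and 4) and TFF1 (7 and 4) had few counts there too. All of these genes, TSPAN8 included, passed the filter on low counts through the control libraries alone, which favours a call of lower. The size of this median is therefore poorly determined. LGALS4, a gut galectin, was at 8.47 and 8.42 CPM in controls and at 0.432 and 0.277 CPM with USP12. CDH17, an intestinal cadherin, was at 124 and 122 CPM against 27.6 and 26.6 CPM, and MUC13, a membrane mucin, at 84.3 and 126 CPM against 7.7 and 11.6 CPM. For VIL1, which encodes villin, the control libraries were further apart at 21.6 and 4.71 CPM, against 0.36 and 0.346 CPM. TFF1, a trefoil peptide of stomach, had 776 and 217 counts in controls and 7 and 4 with USP12. With at least 10 counts required in every sample, 3 genes met the criterion for lower expression and 0 for higher. In that fit 3.91% of all genes were lower by it. Both numbers also changed with the library left out.

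Markers of epithelial cells were present in every library. KRT7, a simple epithelial keratin, was between 2414 and 3258 CPM in all of them. It had the only higher point estimate among the 8 epithelial markers, and the other 7 had lower ones. For 5 of these 7 the groups did not overlap, with the USP12 libraries lower. The same separation held for 17% of all tested genes, and its reverse for 19.5%. KRT8 was at 6075 and 3337 CPM in controls and at 2747 and 2515 CPM with USP12. The median log2 fold change was -0.80 over the 8 markers and -0.71 over the 8 tested lineage factors. The median log2 difference of the markers was -1.19 against control replicate 1 and -0.27 against control replicate 2. The summed level of 8 epithelial markers was 12904 and 7482 CPM in controls and 7320 and 6797 CPM with USP12. By the criterion, 2 of the 8, KRT19 and CLDN7, were lower, against 4.41% of all tested genes. Among markers of other cell types, the 4 endothelial genes summed to 15.4 and 8.59 CPM in controls and to 0.432 and 1.45 CPM with USP12. CDH5 and PECAM1 made up nearly all of this, and TEK and VWF were at or below 3 counts throughout. The 4 leukocyte markers summed to between 47.8 and 79.9 CPM with no gap between the groups, nearly all of it CD68, and CD3E was at 0. Fibroblast markers summed to 14.9 and 2.83 CPM in controls and 20.2 and 16.2 CPM with USP12, with DCN at 0, and the neuroendocrine markers to 12.5 and 9.97 CPM against 5.97 and 4.85 CPM, with INSM1 at 0. The part of these markers in the differences of the lineage factors was not tested. In bulk RNA, fewer cells of a kind and less RNA in each cell cannot be told apart.

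The genes whose pattern over the 4 libraries was most like that of FOXA3, by Euclidean distance of centred log2 CPM, were TMEM98 (distance 0.188), SYT5 (0.213) and IFITM3 (0.401). For FOXA2 they were GNB5 (0.0352), RABIF (0.0384) and FGFR4 (0.0458). Over so few libraries these distances are a description.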

How the data were processed

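Counts were analysed from 4 libraries, 2 control and 2 USP12. The authors deposited raw counts per gene, made by removing adaptors and rRNA reads with Seqtk, mapping to GRCh38 and counting uniquely mapped fragments, with HISAT2 2.0.4 and StringTie 1.3.0 named in the submitters' processing notes. The annotation release and strand setting are not given in the sources used here. From the counts, fold changes were fitted in R 4.3.3 with edgeR 4.0.16 (filterByExpr, TMM, quasi-likelihood test, Benjamini-Hochberg adjustment over 15222 genes), without a replicate block. The standard error is the log2 fold change over the square root of F, with a prior count of 2 for log2 CPM. The prior degrees of freedom were 4.15. The fit was tested on simulated data. Gene positions and exon lengths came from GENCODE release 44, and promoters from RefSeq (GRCh38.p14).

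The members and gene lists were chosen with earlier results of these data known. All 9 members were named, with up to 5 genes of smallest p from each list, USP12, and the 3 genes nearest in pattern to the members of largest log2 fold change in each direction. Others were picked with values in view. As alternatives, use was made of DESeq2 1.42.0 size factors and Wald test, other filters, the edgeR exact test, a replicate block, each library left out and, added after the data were seen, the quasi-likelihood test with legacy = FALSE and the same alternatives for the gene lists.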

Additional observations from a re-analysis of the deposited data

How the results depend on the processing

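FOXA3 and SPDEF kept a lower level in all alternatives run, and FOXA2 kept a higher point estimate. The number of lineage factors with an adjusted p under 0.05 was 0 with the quasi-likelihood test, under DESeq2 scaling, under a minimum of 10 counts in each library and under legacy = FALSE. The number was 2 (FOXA3 and SPDEF) without a filter on low counts (log2 fold changes -2.82 and -2.28), by DESeq2's Wald test (-2.87 and -2.33), by the exact test of edgeR (-2.84 and -2.31) and in the fit with a replicate block (-2.85 and -2.25), fits that called 528 of 24800, 406 of 15222, 429 of 15222 and 404 of 15222 genes in all. Unfiltered and blocked fits, and the fits without USP12 replicate 1 or USP12 replicate 2, had infinite prior degrees of freedom. The replicate numbers pair nothing in the labels (correlation of same-numbered deviations 0.152 across genes), and the block changed no other call of a factor. Leaving out one library gave from 0 to 4 factors under an adjusted p of 0.05 and from 2 to 4 lower by the criterion (3, with CEBPA, unfiltered and by the Wald test), with log2 fold changes from -3.26 to -2.41 for FOXA3, -2.65 to -1.80 for SPDEF, -1.10 to -0.38 for ELF3 and -1.71 to -0.37 for CEBPA. Without control replicate 2 the adjusted count was 4, ELF3 and CEBPA included, without control replicate 1 it was 2 and without either USP12 library 0, where these fits called 5162 of 16008 genes, 1665 of 15909, and 40 of 16137 or 44 of 16108. Those fits assume that the lone library varies like the others. NKX2-1 could be fitted only without a filter (log2 fold change -1.78). Over the alternatives that kept every library, 9 to 12 mucous secretory and 3 to 12 gastric and intestinal genes were lower by the criterion. Between 3.91% and 5.43% of all genes were lower by it in these fits. The number 3 came from requiring 10 counts in every sample, which removes genes near 0 in USP12 cells. The numbers also changed with a library left out.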

Other observations

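Hepatocyte genes, which HNF4A, FOXA and CEBPA factors are known to drive in liver, were detected in part. Of 30 genes, 17 had too few counts to be tested, and ALB, the albumin gene, had at most 2 counts in any library. Of the 13 tested, 5 met the criterion for lower expression in USP12 cells (against 4.41% of all tested genes) and 0 for higher (2.92%). Their median log2 fold change was -1.39. The fibrinogen chain gene FGG was at 108 and 110 CPM in controls and at 26.8 and 22.6 CPM with USP12, and FGB at 167 and 266 CPM against 74.3 and 61.8 CPM. The other 3 were F5 (75 and 157 counts against 14 and 17), AHSG (57 and 21 against 0 and 2) and SERPINA1 (167 and 26 against 16 and 14). AHSG passed the filter on low counts through the control libraries alone. FGA, at 211 and 221 CPM against 112 and 115 CPM, had a log2 fold change of -0.93 and did not reach the fold of the criterion. The groups overlapped for 6 of the 13 tested genes, AMBP and APOH among them, and for 9667 of all 15222 tested genes. Over the alternatives that kept every library, 4 to 7 of the hepatocyte genes were lower by the criterion, where between 3.91% and 5.43% of all genes were. The number varied more widely with a library left out, and so did the share of all genes.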
